A study of Mus musculus with 8 samples.

Results

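Core autophagy and lysosome genes were followed through 8 mouse leukemias: 41 genes chosen by symbol among 41214 gene identifiers. They encode the machinery that builds autophagosomes, cargo receptors, a pair of transcription factors, and proteins of the lysosome. All 41 had 1 identifier each and all passed the filter on low counts, as did 16456 genes in all. By role they were 5 genes of the initiation complex, 4 of the Vps34 lipid kinase complex, 5 of membrane supply, 10 of the conjugation systems, 5 of the Atg8 family, 3 cargo receptors, 2 transcription factors and 7 lysosomal genes.

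The libraries held messenger RNA from spleen tumours of C57Bl6 mice, labelled as B cell or CD4+ T cell tumours and as wild type for Miz1 (wt) or lacking its POZ domain (deltaPOZ). Miz1, the product of Zbtb17, is a zinc finger transcription factor, and the POZ domain joins its molecules into multimers. These made 4 groups of 2 libraries, written below as B wt and B deltaPOZ and as T wt and T deltaPOZ, each library from its own mouse, so that every SD over a lineage rests on n = 4 libraries of both genotypes. How the deletion was driven and in which cells, how the tumours arose, and the ages of the mice are not stated in these sources. The deposited names give all B libraries one sequencing run and all T libraries another with the tag Notch, so lineage, run and tag cannot be told apart. T deltaPOZ names also carry the tag ENU and T wt names do not, so genotype and that tag cannot be told apart in T.

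Autophagy wraps cytoplasm in a growing membrane, closes it into an autophagosome and delivers it to the lysosome for breakdown. The Ulk kinase complex starts the process, the Vps34 lipid kinase marks the site, Atg9 and Atg2 proteins supply membrane, and a pair of ubiquitin-like conjugation systems attach Atg8 family proteins to it. Receptors such as p62, the product of Sqstm1, tie cargo to Atg8 proteins, and the factors Tfeb and Tfe3 switch on lysosomal and autophagy genes. Lymphocytes and red cell precursors both depend on this pathway, the latter to clear their mitochondria.

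The libraries held 44330101 to 58271208 gene counts. Levels are in CPM, counts scaled to a common library size, with edgeR's normalization factors (0.929 to 1.087), and a count of 0 allowed up to 0.0515 to 0.0677 CPM without that factor, counting error only. Zbtb17 lay at 48.0 to 66.1 CPM in B and 36.9 to 49.6 in T, which checks little, since a whole-gene count lies mostly outside a deleted domain. The summed level of 7 B cell markers, among them Cd79a, was 1073 to 2013 CPM in B tumours and 22.7 to 121 in T tumours, and that of 10 T cell markers, among them Cd3e, was 25.4 to 55.4 in B and 2450.0 to 3483 in T. Of the other cells, 11 erythroid markers summed to 4808 and 23047 CPM in the wt and 7802 and 12732 in the deltaPOZ T libraries, and to 4.92 to 222 in B, where Gata1 was at 0 in both B wt libraries. All 11 were higher in T by edgeR. Marker sums for macrophages (103 to 781 CPM in B, 225 to 471 in T), neutrophils (57.1 to 763, 57.2 to 887), dendritic cells (6.30 to 24.7, 16.01 to 26.6) and stroma (103 to 191, 101 to 160) overlapped between lineages. Of these, 1 of 13 tested macrophage genes and 1 of 8 dendritic genes were higher in T, and Vsig4 was at 0 in B wt and T deltaPOZ. Macrophage RNA was uneven within B, with sums of 128 and 781 CPM in wt and 534 and 103 in deltaPOZ. Of the 781 in B wt 2, Lyz2 alone gave 633, and the other 13 markers summed to 61.6 and 147 CPM in wt and 390 and 70.5 in deltaPOZ, with 12 of the 13 highest in B deltaPOZ 1. In T these 13 summed to 178 and 326 CPM in wt and 283 and 396 in deltaPOZ. Each T library thus lay above B wt 1, B wt 2 and B deltaPOZ 2, and the lineages overlapped only through B deltaPOZ 1. B wt 2 had the highest neutrophil sum of the B libraries (763 CPM, against 57.1 to 128 in the others). T wt 1 stood apart in Xist (1246 CPM against 11.8 to 35.4 in the other T libraries) and held Ddx3y as well (22.5 CPM against 142 to 184). T deltaPOZ 2 gave counts for 25387 genes, more than the 18339 to 21078 of the others. Results are given with and without these 3 libraries. In bulk tumours fewer cells of a type and less RNA per cell cannot be told apart.

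T tumours had higher levels of 15 members and lower levels of 5 than B tumours, so 20 of 41 (48.8%) passed edgeR's quasi-likelihood test at a Benjamini-Hochberg adjusted p under 0.05, against 35.3% of all tested genes. Higher members made up 36.6% against 19.3% of all genes, and lower members 12.2% against 16%. Libraries of the lineages did not overlap in 21 members (51.2%, against 37.1% of genes), 16 higher in T (39.0%, against 20.1%) and 5 lower (12.2%, against 17%). The member median log2 fold change, T over B, was 0.39, beside 0.05 over all genes. Among members higher in T the largest fold changes were those of Wipi1, Optn and Map1lc3a, and among members lower in T those of Atg4c and Tfeb. Of the 20, 12 passed whichever of the 8 libraries was left out: Ulk1, Ulk2, Uvrag, Wipi1, Atg4c, Atg4d, Atg12, Map1lc3a, Sqstm1, Optn, Tfeb and Lamp2. The count fell to 13 without B wt 2, to 12 without T wt 2 and to 12 without T deltaPOZ 2. Without the 3 libraries named above it was 5 (Wipi1, Sqstm1, Optn, Tfeb and Lamp2), in a fit of 5 libraries.

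**Figure D1:**
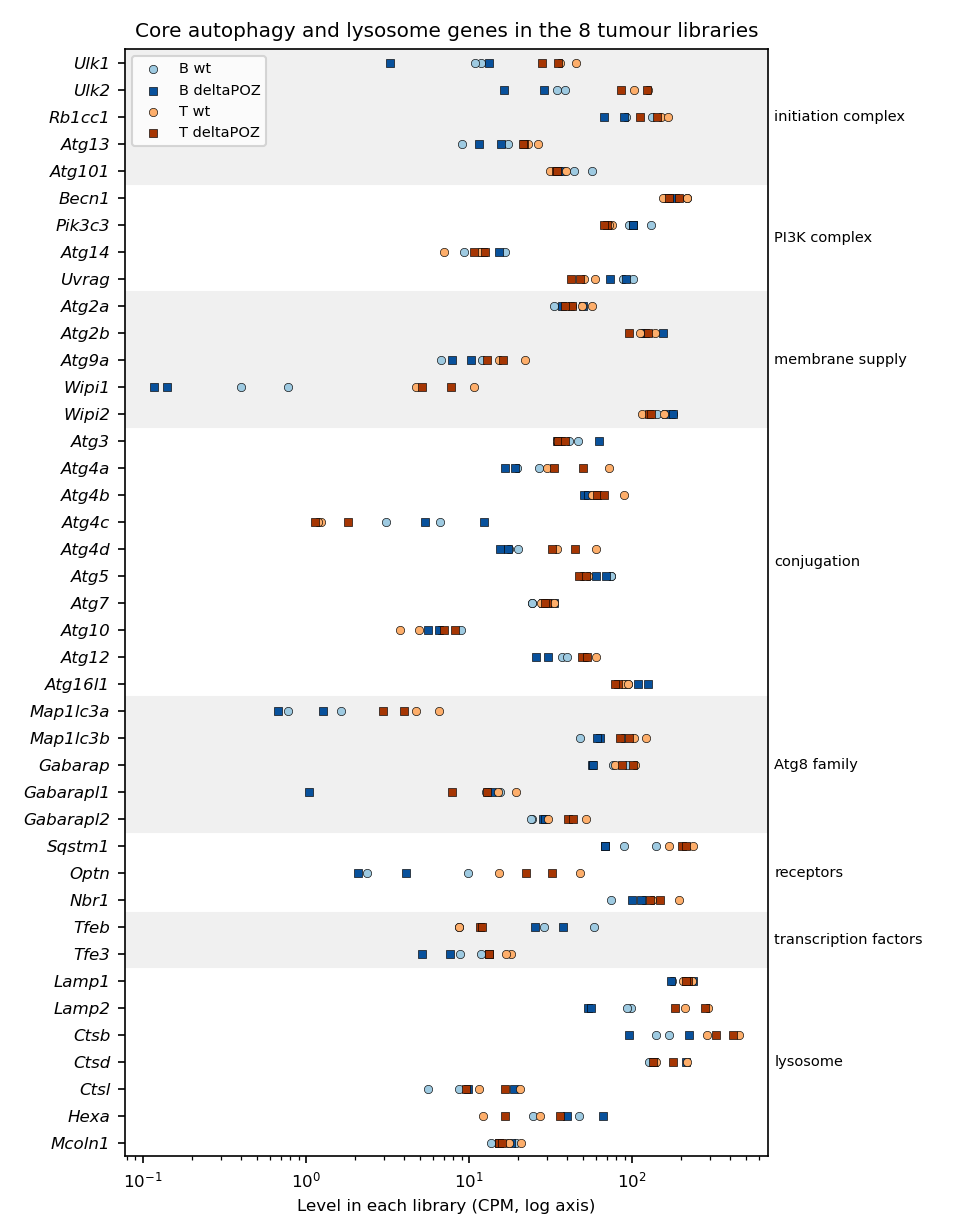
Level of each member in each library in CPM on a log axis, by role; circles are wt and squares deltaPOZ, blue B and orange T tumours. Wipi1 spans the widest range, from 0.117 CPM in B deltaPOZ 1 to 10.8 in T wt 2, while Lamp1 lies between 173 and 235 in all 8 libraries.

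**Figure D2:**
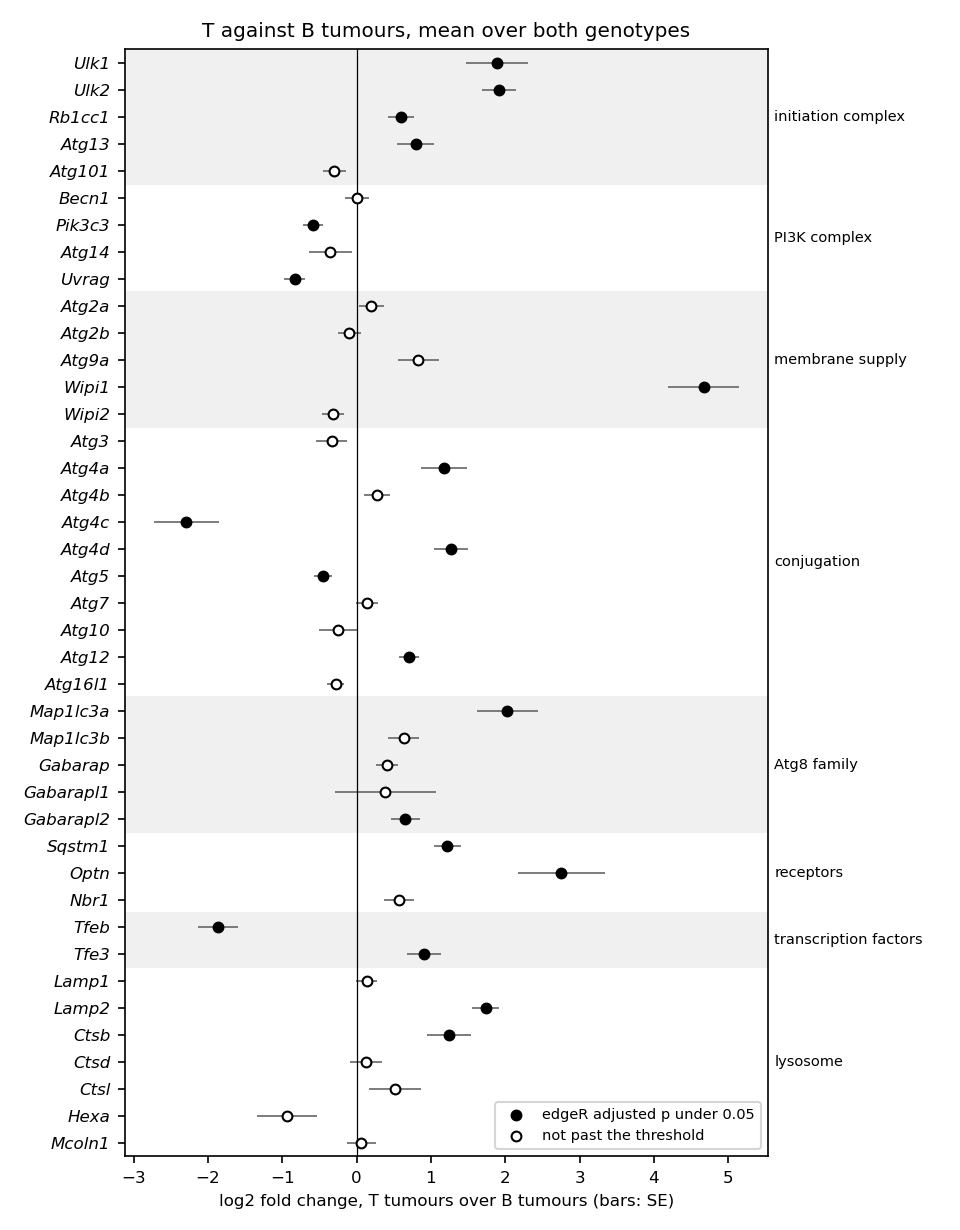
Log2 fold change of T over B tumours for each member, with SE bars and n = 4 libraries a lineage; filled points passed edgeR's adjusted test. The 15 filled points on the right run from Rb1cc1 (0.60) to Wipi1 (4.67), and the 5 on the left from Atg5 (-0.45) to Atg4c (-2.29).

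The transcription factors went opposite ways between the lineages. Tfeb, a basic helix-loop-helix factor of lysosomal genes (chromosome 17, 47737030 to 47792419, GRCm38), stood at 58.0 and 28.7 CPM in wt and 25.4 and 37.7 in deltaPOZ B tumours, against 8.62 and 8.67 in wt and 11.7 and 12.1 in deltaPOZ T tumours. Every T library lay below every B library, and the log2 fold change, T over B, was -1.87 (SE 0.27, edgeR adjusted p = 0.0035). Its relative Tfe3, on chromosome X, stood at 11.8 and 8.78 CPM in wt and 5.17 and 7.61 in deltaPOZ B tumours, against 18.1 and 16.9 in wt and 13.2 and 13.2 in deltaPOZ T tumours. All T libraries were above all B libraries (0.91, SE 0.23, edgeR adjusted p = 0.0215), but this call was lost in 6 of the 8 fits without 1 library (all but those without B wt 1 or B deltaPOZ 2), with an adjusted p of up to 0.0726. On levels per kilobase of exon, Tfeb made up 87.8 ± 2.4% of the pair's sum in B (SD, n = 4) and 52.1 ± 8.7% in T, and the lineages did not overlap (84.2 to 89.0% against 43.7 to 60.0%).

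Both factors bind the letters CACGTG, which read the same on both strands, and a longer form TCACGTGA contains it. RefSeq promoters of GRCm38.p6, from 250 bases before to 50 after the gene start, matched 34 of the 41 members by symbol; Rb1cc1, Becn1, Pik3c3, Atg12, Atg16l1, Map1lc3a and Ctsb had none. CACGTG was in 8 of the 34 (23.5%) against 8.09% of 27025 genes, and TCACGTGA in 3 (8.82%) against 1.12%. The 27025 were all genes with a promoter entry, also those that did not pass the filter on low counts here. All 34 members passed it, so these shares compare unlike sets of genes and do not show an excess among expressed genes. The 8 were Atg3, Atg5, Atg7, Atg14, Lamp1, Ctsd, Ctsl and Mcoln1, and the 3 with the longer form Atg3, Ctsd and Mcoln1. A match is a description of letters and not of binding. The letters GTAAACA, the core bound by Foxo factors, were in 0 of the 34 on either strand, against 4.05% of genes. The stretches below carry matches, with CACGTG in capitals and the strand of the gene, and show 3 lysosomal genes beside 2 of conjugation. For Ctsd the match at position -98 from the start is shown, and another at -245 is not. The Ctsd stretch and the inner one of Mcoln1 lie within an exon of at least 1 transcript.
Lamp1, chr8:13159051-13159160, plus strand, 110 bases up to the start: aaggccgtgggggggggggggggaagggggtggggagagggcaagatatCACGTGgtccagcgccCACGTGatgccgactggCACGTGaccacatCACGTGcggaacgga
Mcoln1, chr8:3500347-3500456, plus strand, the outer match: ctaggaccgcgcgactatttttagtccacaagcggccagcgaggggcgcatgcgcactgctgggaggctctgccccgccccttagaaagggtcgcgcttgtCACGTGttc
Mcoln1, chr8:3500462-3500491, plus strand, the inner match: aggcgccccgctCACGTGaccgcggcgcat
Ctsd, chr7:142387908-142387937, minus strand: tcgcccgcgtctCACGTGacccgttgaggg
Atg3, chr16:45158675-45158784, plus strand: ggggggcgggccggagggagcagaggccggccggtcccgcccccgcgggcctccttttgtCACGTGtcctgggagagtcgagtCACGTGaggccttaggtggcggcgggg
Atg5, chr10:44268229-44268338, plus strand: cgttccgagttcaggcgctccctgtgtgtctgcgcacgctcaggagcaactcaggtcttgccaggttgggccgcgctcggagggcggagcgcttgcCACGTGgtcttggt
Lamp1 carried the motif 4 times, at 61, 45, 28 and 15 bases before the start, and Atg5 once, at 14 bases before it. Of the 8 members with CACGTG, 1 passed between the lineages (Atg5, lower in T), and of the 26 others with a promoter entry 14 passed (11 higher, 3 lower). Median log2 fold changes, T over B, were 0.10 and 0.60 in that order. Of all tested genes 35.3% passed between the lineages, but these were not split by the letters. A link between the letters and the fold changes was not tested.

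The initiation complex was higher in T tumours in 4 of its 5 members. Ulk1, a kinase that starts autophagy (chromosome 5, 110784488 to 110810097), stood at 11.7 and 10.8 CPM in wt and 3.26 and 13.3 in deltaPOZ B tumours, against 36.3 and 45.3 in wt and 35.1 and 28.0 in deltaPOZ T tumours. The lowest T library was above the highest B library, and B deltaPOZ 1 was the lowest of all (1.89, SE 0.42, edgeR adjusted p = 0.0145). Ulk2, its relative (chromosome 11, 61775649 to 61855073), stood at 38.9 and 34.8 CPM in wt and 16.4 and 28.7 in deltaPOZ B tumours, against 102 and 124 in wt and 85.3 and 124 in deltaPOZ T tumours. These did not overlap either (1.92, SE 0.23, edgeR adjusted p = 0.0019). Per kilobase of exon, Ulk2 made up 77.7 ± 5.9% of both kinases in B and 76.4 ± 4.4% in T (SD, n = 4), and these shares overlapped.

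Rb1cc1, the scaffold of the complex, stood at 133 and 91.1 CPM in wt and 67.5 and 89.2 in deltaPOZ B tumours, against 150.4 and 167 in wt and 112 and 142 in deltaPOZ T tumours. T deltaPOZ 1 lay below B wt 1, so the lineages overlapped (0.60, SE 0.18, edgeR adjusted p = 0.0396). Atg13, a regulatory subunit, stood at 17.2 and 9.03 CPM in wt and 11.5 and 15.6 in deltaPOZ B tumours, against 26.6 and 23.0 in wt and 21.7 and 21.4 in deltaPOZ T tumours, without overlap (0.79, SE 0.25, edgeR adjusted p = 0.0478). Both calls were close to the threshold. Rb1cc1 kept its call only without B wt 1 or B deltaPOZ 2, and Atg13 only without B wt 1, with edgeR adjusted p of up to 0.126 and 0.136 in the other fits without 1 library. Atg101, which stabilises Atg13, did not pass (-0.30) and lay at 31.5 to 56.9 CPM.

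The Vps34 complex gave lower levels in T for 2 of 4 members. Pik3c3, which encodes the lipid kinase Vps34, stood at 131 and 95.0 CPM in wt and 101 and 101 in deltaPOZ B tumours, against 75.0 and 71.8 in wt and 69.7 and 67.0 in deltaPOZ T tumours. Uvrag, a subunit of the form of the complex that acts on late endosomes and autophagosome maturation (chromosome 7, 98885021 to 99141141), stood at 101 and 88.2 CPM in wt and 73.6 and 92.0 in deltaPOZ B tumours, against 59.3 and 50.5 in wt and 47.8 and 42.0 in deltaPOZ T tumours. All T libraries lay below all B libraries for both. The log2 fold changes were -0.59 (SE 0.14, edgeR adjusted p = 0.0169) and -0.83 (SE 0.14, edgeR adjusted p = 0.0059). Pik3c3 lost its call without any 1 of the 4 T libraries (adjusted p up to 0.0640). Becn1, the core subunit, lay at 155 to 218 CPM over all libraries and Atg14, of the form that acts at autophagosome formation, at 7.02 to 16.7, with log2 fold changes of 0.00 and -0.35 that did not pass.

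Of the membrane supply genes, Wipi1 alone passed. It encodes a protein that reads the lipid made by Vps34 (chromosome 11, 109573331 to 109611967) and was the lowest member per kilobase of exon (0.847 CPM per kb over all libraries), with Atg4c next (1.22). Wipi1 stood at 0.778 and 0.4003 CPM in wt and 0.117 and 0.140 in deltaPOZ B tumours, against 4.75 and 10.8 in wt and 5.15 and 7.77 in deltaPOZ T tumours. Every T library lay above every B library, and the log2 fold change was 4.67 (SE 0.47, edgeR adjusted p = 0.0012), or 4.31 to 4.95 without any 1 library. Per kilobase it made up 0.516 ± 0.414% of both Wipi genes in B and 11.1 ± 2.6% in T (SD, n = 4), and Wipi2, at 115 to 178 CPM in all libraries, held the rest. Atg9a, a membrane protein of the vesicles that seed the autophagosome, had T libraries all above the B libraries (6.72 to 12.1 CPM in B, 12.8 to 22.01 in T) but did not pass (0.83, edgeR adjusted p = 0.0550). The lipid transfer genes Atg2a (33.2 to 57.1 CPM) and Atg2b (95.9 to 154) overlapped between the lineages.

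In the conjugation systems 3 of 10 members were higher and 2 lower in T, and the Atg4 proteases, which trim Atg8 proteins and release them from membranes, accounted for 3 of these 5. Atg4a (chromosome X) stood at 26.7 and 19.7 CPM in wt and 16.6 and 19.0 in deltaPOZ B tumours, against 29.8 and 71.6 in wt and 33.2 and 50.2 in deltaPOZ T tumours. Atg4d stood at 20.0 and 17.6 CPM in wt and 17.4 and 15.5 in deltaPOZ B tumours, against 34.6 and 59.6 in wt and 32.3 and 44.4 in deltaPOZ T tumours. Both were highest in T wt 2 and next in T deltaPOZ 2, without overlap between the lineages. The log2 fold changes were 1.18 (SE 0.31, edgeR adjusted p = 0.0260) for Atg4a and 1.27 (SE 0.22, edgeR adjusted p = 0.0066) for Atg4d. Atg4a lost its call without any 1 of the B libraries, T wt 2 or T deltaPOZ 2 (adjusted p up to 0.0872), and a pseudogene, Atg4a-ps, could share its reads. Atg4c (chromosome 4, 99193934 to 99259787) went the other way, at 3.11 and 6.63 CPM in wt and 12.3 and 5.36 in deltaPOZ B tumours, against 1.24 and 1.19 in wt and 1.14 and 1.81 in deltaPOZ T tumours. All T libraries lay below all B libraries (-2.29, SE 0.43, edgeR adjusted p = 0.0085). B deltaPOZ 1, the highest, was the library in which genes of chromosome 4 as a whole lay higher than in the other B libraries, by a median of 0.44 on the log2 scale. The lineages thus differed in the makeup of the family per kilobase, with Atg4a at 40.3 ± 5.8% in B and 53.3 ± 4.6% in T, Atg4b at 36.0 ± 2.5 and 26.7 ± 3.4%, Atg4c at 10.95 ± 6.50 and 1.34 ± 0.40%, and Atg4d at 12.7 ± 0.4 and 18.6 ± 1.3% (SD, n = 4). These shares did not overlap between B and T for any of the 4 genes.

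Atg12 and Atg5 encode the proteins that are joined to each other in the other conjugation system, and their messages went opposite ways. Atg12 stood at 37.2 and 39.9 CPM in wt and 30.5 and 25.8 in deltaPOZ B tumours, against 52.2 and 59.8 in wt and 49.4 and 52.7 in deltaPOZ T tumours. Atg5 (chromosome 10, 44268358 to 44364291) stood at 73.8 and 73.9 CPM in wt and 69.0 and 60.4 in deltaPOZ B tumours, against 49.5 and 53.8 in wt and 47.0 and 51.8 in deltaPOZ T tumours. Neither overlapped between the lineages. Atg12 was higher in T (0.70, SE 0.13, edgeR adjusted p = 0.0088) and Atg5 lower (-0.45, SE 0.12, edgeR adjusted p = 0.0276). Atg5 kept its call only without B deltaPOZ 2 among the fits without 1 library (adjusted p up to 0.0972 in the others), and lost it without the filter on low counts. The activating enzyme gene Atg7 (24.2 to 33.3 CPM), the conjugating enzyme genes Atg3 (34.5 to 62.6) and Atg10 (3.75 to 8.94), the adaptor gene Atg16l1 (78.5 to 125) and Atg4b (50.8 to 89.7) did not pass.

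All 5 Atg8 family genes had positive fold changes in T, with a median log2 fold change of 0.63 beside 0.05 over all tested genes. Of the 5, 2 passed, where 35.3% of all tested genes did. Map1lc3a, an LC3 gene (chromosome 2, 155276297 to 155278073), stood at 1.63 and 0.778 CPM in wt and 1.27 and 0.678 in deltaPOZ B tumours, against 6.57 and 4.70 in wt and 2.97 and 3.98 in deltaPOZ T tumours. Gabarapl2 stood at 24.3 and 24.0 CPM in wt and 28.3 and 29.2 in deltaPOZ B tumours, against 30.6 and 52.0 in wt and 40.4 and 43.3 in deltaPOZ T tumours. In neither did the lineages overlap, although T wt 1 was close to the B libraries in Gabarapl2. The log2 fold changes were 2.03 (SE 0.41, edgeR adjusted p = 0.0106) and 0.66 (SE 0.19, edgeR adjusted p = 0.0370), and Gabarapl2 kept its call only without T wt 1 (adjusted p up to 0.111 in the other fits without 1 library). Gabarap was the main family member per kilobase, with 59.0 ± 5.1% of the sum in B and 54.5 ± 3.0% in T (SD, n = 4), and Map1lc3a the least, with 1.40 ± 0.42% and 4.25 ± 1.68%. Map1lc3b (47.8 to 87.6 CPM in B, 84.5 to 121 in T) did not pass (0.63, edgeR adjusted p = 0.0514), and nor did Gabarap (0.41, 0.0679). Gabarapl1 lay at 7.90 to 19.3 CPM in 7 libraries and at 1.04 in B deltaPOZ 2.

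Of the 3 cargo receptors, Sqstm1 and Optn were higher in T tumours. Sqstm1, which encodes the receptor p62 (chromosome 11, 50199366 to 50210827), stood at 140.0 and 88.7 CPM in wt and 67.7 and 67.9 in deltaPOZ B tumours, against 169 and 235 in wt and 203 and 215 in deltaPOZ T tumours. Every T library was above every B library, and B wt 1 was the highest of the B libraries (1.22, SE 0.19, edgeR adjusted p = 0.0043). Optn, a receptor for bacteria and damaged mitochondria (chromosome 2, 5020642 to 5064051), stood at 9.85 and 2.36 CPM in wt and 4.10 and 2.09 in deltaPOZ B tumours, against 15.3 and 47.9 in wt and 22.4 and 32.3 in deltaPOZ T tumours. The lineages did not overlap, and the T libraries ranged from T wt 1, the lowest, to T wt 2, the highest (2.76, SE 0.59, edgeR adjusted p = 0.0126). Nbr1, a receptor of ubiquitin-tagged cargo, lay at 74.0 to 118 CPM in B and 129 to 194 in T without overlap and did not pass (0.58, edgeR adjusted p = 0.0642).

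Of the 7 lysosomal genes, Lamp2 and Ctsb were higher in T and none lower. Lamp2, a membrane protein needed for fusion with autophagosomes (chromosome X, 38401357 to 38456454), stood at 97.7 and 93.3 CPM in wt and 53.4 and 55.7 in deltaPOZ B tumours, against 211 and 290.0 in wt and 182 and 280.4 in deltaPOZ T tumours. The groups fell in 3 steps, with B deltaPOZ lowest, B wt next and all T libraries highest (T over B 1.74, SE 0.18, edgeR adjusted p = 0.0013). Ctsb, a cysteine protease (chromosome 14, 63122462 to 63145923), stood at 167 and 139 CPM in wt and 224 and 95.1 in deltaPOZ B tumours, against 287 and 450.2 in wt and 329 and 417 in deltaPOZ T tumours, without overlap (1.25, SE 0.30, edgeR adjusted p = 0.0190). Its call was lost without B wt 2, T wt 2 or T deltaPOZ 2 (adjusted p up to 0.0608). Lamp1 and Ctsd were the members with the highest levels per kilobase (77.7 and 68.3 CPM per kb over all libraries), and neither passed. Lamp1, the other main membrane protein, stood at 208 and 176 CPM in wt and 235 and 173 in deltaPOZ B tumours, against 231 and 206 in wt and 220 and 213 in deltaPOZ T tumours (0.13). Ctsd, an aspartic protease, stood at 127 and 138 CPM in wt and 214 and 136 in deltaPOZ B tumours, against 140 and 218 in wt and 134 and 178 in deltaPOZ T tumours (0.13). Its highest libraries, B deltaPOZ 1 and T wt 2, belong to different lineages, and over the B libraries it ran in the same order as the macrophage gene Adgre1 (3.32 and 11.97 CPM in wt, 32.0 and 5.20 in deltaPOZ), as did Atg4c. These were 2 of 41 members (4.88%) against 4.35% of genes. The hydrolase gene Hexa (12.2 to 66.2 CPM), the protease gene Ctsl (5.60 to 20.4) and the calcium channel gene Mcoln1 (13.6 to 20.8) overlapped between lineages and did not pass.

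Erythroid RNA moved with several of these members. Over the 4 T libraries 10 of 41 members (24.4%) ran in the same order as the summed erythroid markers, against 5.89% of all tested genes: Atg101, Wipi1, Wipi2, Atg4a, Atg4b, Gabarap, Gabarapl2, Sqstm1, Optn and Ctsb. Of these, 6 were among the 15 called higher in T. In T wt 1, the T library with the lowest erythroid sum (4808 CPM, against 4.92 to 222 in B), levels were 4.75 CPM for Wipi1, 15.3 for Optn, 169 for Sqstm1 and 287 for Ctsb. The part of erythroid cells in these differences was not tested.

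**Figure D3:**
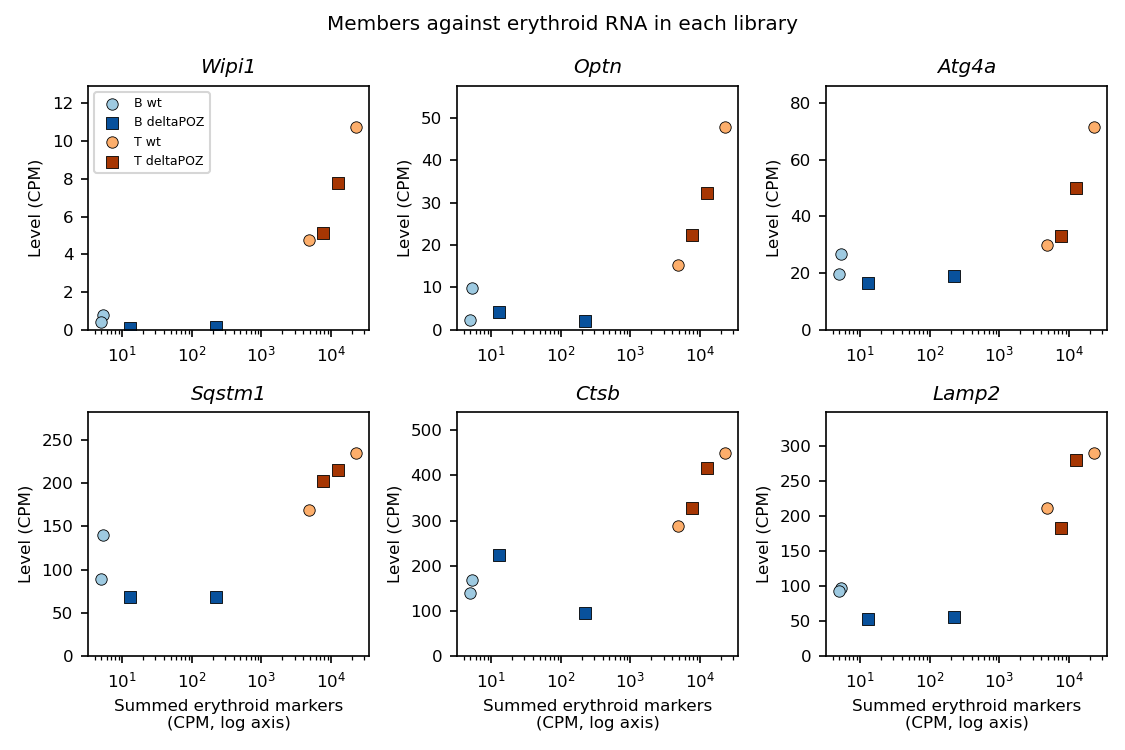
Level of 6 members in CPM against the summed level of 11 erythroid markers in CPM on a log axis, 1 point a library. In Wipi1, Optn, Atg4a, Sqstm1 and Ctsb the 4 T libraries rise in the same order as the erythroid sum, from T wt 1 (4808) to T wt 2 (23047), while Lamp2 does not keep that order.

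The deletion of the POZ domain was compared within each lineage, and 0 of 41 members passed in either. In counts simulated with the spread of these data, the fit called 1.49% of 2-fold and 20.9% of 4-fold changes in B. In T it called 1.49% and 34.3%, in the average of both lineages 8.96% and 50.8%, and in the difference 0% of both. A member that did not pass is therefore not shown to be unchanged. In B tumours edgeR called 0.00608% of all tested genes and 0 members, with 5 members at an unadjusted p under 0.05 (12.2%, against 12.1% of genes), and DESeq2 (4.14% of genes) and limma-voom (0.0365%) also called 0 members. The 5 were Wipi1, Lamp2, Sqstm1, Gabarap and Atg12, and all 5 had negative fold changes (6.45% of genes had such a p and a negative fold change). Lamp2 had a log2 fold change, deltaPOZ over wt, of -0.81 (SE 0.25, edgeR adjusted p = 0.323), its B deltaPOZ libraries (53.4 and 55.7 CPM) lying close together under both B wt libraries (97.7 and 93.3). Wipi1 had -2.18 (SE 0.64, edgeR adjusted p = 0.303) at levels under 1 CPM in all 4 libraries. Sqstm1 had -0.75 (SE 0.26, edgeR adjusted p = 0.361). Gabarap, at 93.2 and 75.9 CPM in wt B tumours and 56.3 and 57.8 in deltaPOZ ones, had -0.57 (SE 0.21, edgeR adjusted p = 0.375), while its T libraries (79.0 and 104 in wt, 86.4 and 101 in deltaPOZ) overlapped. Atg12 had -0.45 (SE 0.19, edgeR adjusted p = 0.409). Without the filter on low counts, the fit over more genes called Lamp2 (edgeR adjusted p = 0.0493), 1 of 41 members (2.44%) against 4.79% of all genes in that fit.

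The 2 deltaPOZ libraries of B lay below both wt libraries in 14 members (34.1%, against 19.1% of genes) and above them in 5 (12.2%, against 19.9%). The 14 were Ulk2, Rb1cc1, Atg101, Wipi1, Atg4a, Atg4b, Atg4d, Atg5, Atg10, Atg12, Gabarap, Sqstm1, Tfe3 and Lamp2, and the 5 were Atg2b, Atg7, Atg16l1, Gabarapl2 and Ctsl. Fold changes were negative in 24 of 41 members, against 50.7% of genes. The member median was -0.16 and turned to 0.14 without B wt 1, so its sign rests on that library. Marker sums also separated the genotypes in B without overlap: B cell markers were at 2013 and 1389 CPM in wt and 1073 and 1192 in deltaPOZ, neutrophil markers at 128 and 763 against 57.1 and 61.5, stroma markers at 191 and 189 against 103 and 129, and erythroid markers at 5.28 and 4.92 against 12.8 and 222. Of the B cell markers, Cd79a, Pax5 and Ebf1 lay lower in deltaPOZ without overlap, while Cd79b, Blnk, Cd22 and Ms4a1 overlapped between genotypes. Cd79b alone gave 971 CPM of the sum in B wt 1, and Ms4a1 had a positive fold change (0.57). Of the stroma sums, Pecam1 alone gave 184 and 121 CPM in wt and 68.7 and 111 in deltaPOZ. Among the other stroma genes Cdh5 also lay lower without overlap, while Col1a1, Col1a2, Col3a1, Pdgfrb and Dcn overlapped between genotypes. The part of these marker sums in the members' differences was not tested. Sex moved with genotype in B, with Xist at 975 and 1477 CPM in wt and 0.936 and 0.757 in deltaPOZ, and Ddx3y at 0.0949 and 0.289 in wt and 174 and 133 in deltaPOZ, and these cannot be told apart. Tfe3, Lamp2 and Atg4a lie on chromosome X, where genes above 10 CPM had a median of -0.11 in B, and Atg12 lies on chromosome 18, where the median was -0.26. Larger medians in B were those of chromosome 12 (-0.37), which holds Atg2b, and chromosome 4 (0.38), which holds Atg4c. Against the other B libraries, chromosome 12 had medians of 0.57 in B wt 1 and -0.13 in B wt 2, and -0.24 and -0.18 in deltaPOZ. Chromosome 4 had -0.24 and -0.26 in wt, 0.44 in B deltaPOZ 1 and 0.04 in B deltaPOZ 2.

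In T tumours edgeR called 0% of genes and 0 members, with 0 members at an unadjusted p under 0.05 (2.65% of genes), and DESeq2 (0.31% of genes) and limma-voom (0%) also called 0 members. The smallest p belonged to Atg10, the enzyme that joins Atg12 to Atg5, with 3.75 and 4.94 CPM in the wt and 7.02 and 8.22 in the deltaPOZ libraries, and its log2 fold change of 0.81 had an SE of 0.36 and an edgeR adjusted p of 1. In B it stood at 8.94 and 6.61 in wt and 6.49 and 5.58 in deltaPOZ, the opposite order. Atg2a came next, with 49.4 and 57.1 CPM in the wt and 43.0 and 38.9 in the deltaPOZ T libraries (-0.38, SE 0.23), and with 42.6 and 33.2 in wt and 37.4 and 49.9 in deltaPOZ B libraries, where the genotypes overlapped. Uvrag (-0.29, SE 0.20), Tfe3 (-0.41, SE 0.32) and Rb1cc1 (-0.32, SE 0.25) followed, each with an edgeR adjusted p of 1. Both T deltaPOZ libraries lay below both T wt libraries in 12 members (29.3%, against 17% of genes): Ulk1, Rb1cc1, Atg13, Pik3c3, Uvrag, Atg2a, Atg16l1, Map1lc3a, Map1lc3b, Gabarapl1, Tfe3 and Mcoln1. They lay above in 2 (4.88%, against 15.4%), Atg10 and Tfeb. Marker sums that separated the genotypes in T without overlap were those of T cells (3455 and 3483 CPM in wt, 2450.0 and 2704 in deltaPOZ), macrophages (225 and 342, 373 and 471) and dendritic cells (16.01 and 18.1, 23.7 and 26.6), and their part was not tested. Of the T cell markers, Cd3d, Cd3e, Cd4, Lck, Tcf7 and Bcl11b lay lower in deltaPOZ without overlap. Cd3g, Lat, Cd28 and Cd5 overlapped between genotypes, and Cd3g had a positive fold change (0.17). Cd4 stood at 331 and 432 CPM in wt and 98.8 and 118 in deltaPOZ. Without Lyz2 the macrophage sums overlapped, at 178 and 326 CPM in wt and 283 and 396 in deltaPOZ. Fold changes were negative in 31 of 41 members, against 50% of genes, with a median of -0.18 that turned to 0.11 without T wt 2. Atg14 and Ctsb lie on chromosome 14, where genes above 10 CPM had a median of 0.23 in T. Against the other T libraries that chromosome had medians of 0.49 in T deltaPOZ 1 and -0.18 in T deltaPOZ 2.

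**Figure D4:**
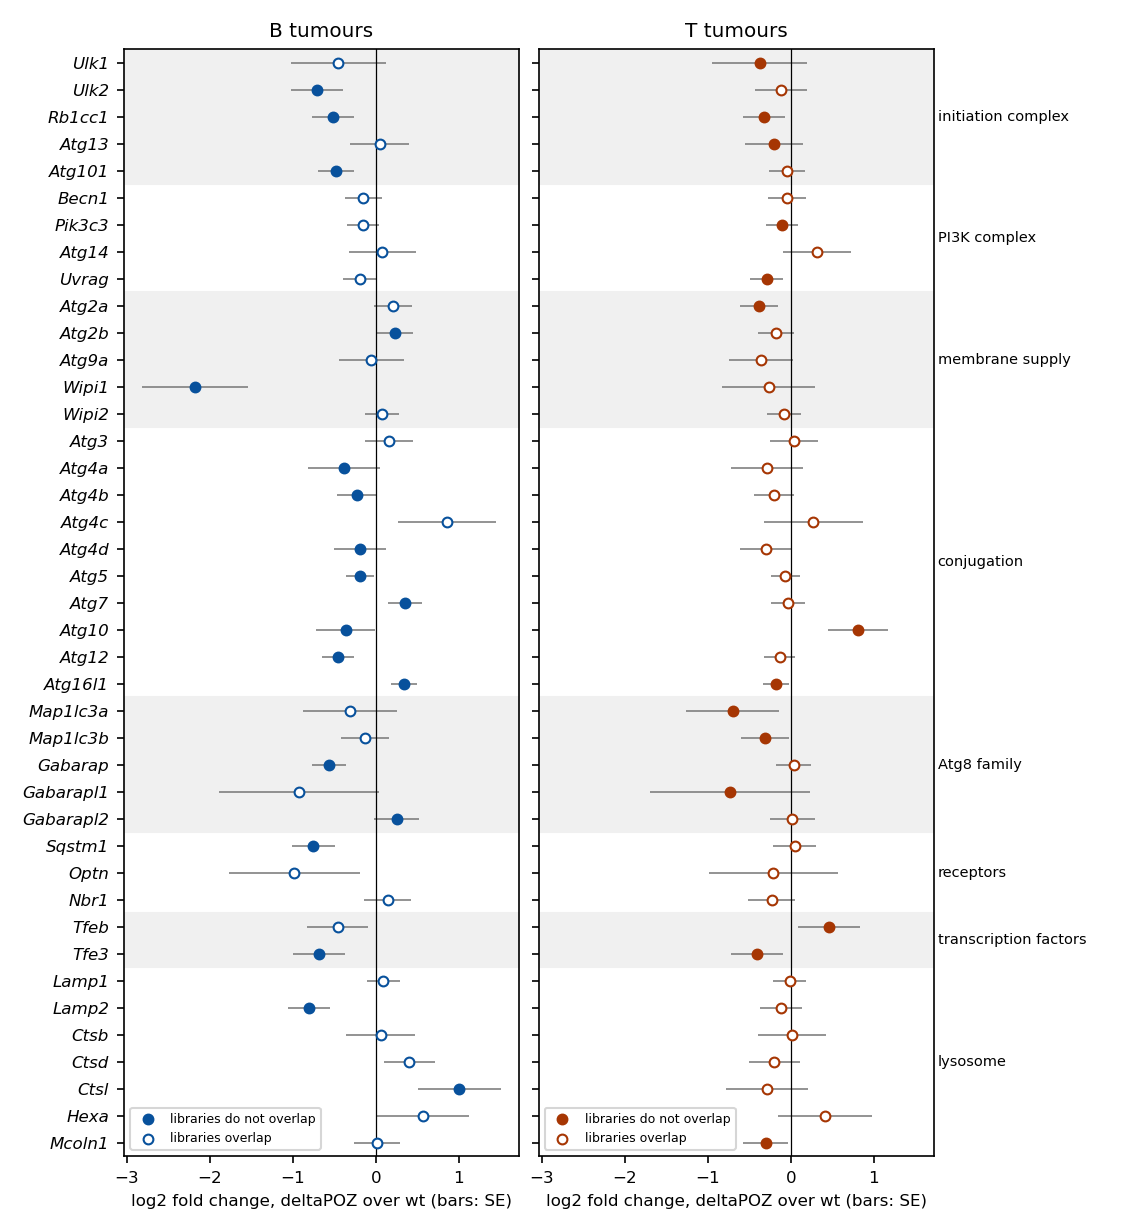
Log2 fold change of deltaPOZ over wt for each member in B and in T tumours with SE bars, 2 libraries a group; filled points mark members whose libraries did not overlap between genotypes. No point passed the adjusted test, and Wipi1 in B (-2.18) lies farthest from 0.

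Averaged over both lineages edgeR called 0% of genes and 0 members, with 3 members at an unadjusted p under 0.05 (7.32%, against 8.90% of genes), and DESeq2 (1.93% of genes) and limma-voom (0%) called 0 members. All 3 were lower in deltaPOZ, against 4.71% of genes: Wipi1 (-1.22, SE 0.42, edgeR adjusted p = 0.512), Lamp2 (-0.46, SE 0.18, 0.551) and Tfe3 (-0.55, SE 0.22, 0.559), followed by Rb1cc1 (-0.42, SE 0.18, 0.564) and Atg12 (-0.29, SE 0.13, 0.571). Rb1cc1 and Tfe3 were the members whose deltaPOZ libraries lay below the wt libraries in both lineages, 2 of 41 (4.88%) against 4.42% of genes. The deltaPOZ effect was also compared between lineages, where edgeR, DESeq2 and limma-voom called 0 members, edgeR called 0% of genes and DESeq2 1.37%, and 0 members had an unadjusted p under 0.05 against 6.26% of genes. The smallest p were those of Atg10 (T minus B 1.17, SE 0.51), Atg16l1 (-0.52, SE 0.23), Wipi1 (1.92, SE 0.84), Sqstm1 (0.80, SE 0.37) and Gabarap (0.60, SE 0.29), with edgeR adjusted p of 0.803 to 0.809. Atg16l1, which brings the Atg5 and Atg12 conjugate to the membrane, stood at 94.0 and 90.4 CPM in wt and 108 and 125 in deltaPOZ B tumours, against 87.8 and 94.0 in wt and 82.2 and 78.5 in deltaPOZ T tumours. It and Atg10 moved in opposite orders in the lineages without overlap, 2 of 41 (4.88%) against 4.64% of genes.

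Other genes of the pathway were taken from 7 lists with 153 genes, all tested. Between the lineages 62 passed (40.5%, against 35.3% of all genes), 31 higher and 31 lower in T. The counts of each list below stand beside the same 35.3%, and whether any list differs from it was not tested. Further cargo receptors gave 7 higher and 2 lower of 11. Calcoco1, a receptor gene (10.5 ± 3.9 CPM in B, 61.7 ± 22.3 in T), had the largest rise at 2.51, with Tex264 (1.39) and Retreg1 (1.18), receptors of the endoplasmic reticulum, and Bnip3l (1.31), the mitochondrial receptor that reticulocytes use. Bnip3, its relative, fell from 12.6 ± 6.0 to 1.41 ± 0.61 CPM (-3.05), as did Phb2 (-0.63). The erythroid sums given above were higher in the same T libraries, and their part in the calls of these 153 genes was not tested.

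Among 19 further autophagy factors 3 were higher, Vmp1 (1.17), Sh3glb1 (0.82) and Rab7 (0.54), and 2 lower, the fusion gene Stx17 (-1.17) and the inhibitor gene Rubcn (-0.93). Of 31 genes of mTORC1 and nutrient sensing 6 were higher and 6 lower. Mtor, the kinase that restrains Ulk1, was at 263 ± 176 CPM in B and 93.2 ± 14.4 in T (-1.42), and Prkaa2, a catalytic subunit of AMPK, had -5.85 with overlapping libraries and 0.138 ± 0.140 CPM in T, while Prkaa1, the other such subunit, rose (0.74). The higher genes were led by Fnip2 (2.89), Foxo3 (2.05) and Sesn2 (1.32), and Sesn1 (-0.93) and Fnip1 (-0.84) were lower. The paralogs Fnip1 and Fnip2, and Sesn1 and Sesn2, thus passed in opposite directions.

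The proton pump of the lysosome had 3 of 17 genes higher and 2 lower in T. The membrane subunit genes Atp6v0a2 (1.97) and Atp6v0a1 (1.49) rose with Atp6v0c (1.10), while Tcirg1 (-1.21), another gene of that subunit, and Atp6v0b (-1.04) fell. Of 13 further cathepsins and related proteases 2 were higher and 5 lower. Ctse went from 20.4 ± 12.3 to 294 ± 140 CPM (3.89) and Ctsf from 0.533 ± 0.430 to 10.4 ± 8.2 (4.35). Ctss, the protease that trims the invariant chain of MHC class II, went from 189 ± 60 to 42.1 ± 10.3 (-2.18), and Ctsz (-1.65), Ctsh (-1.18) and Ctsc (-0.81) were lower as well.

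Of 32 lysosomal hydrolases 5 were higher, led by Ppt2 (2.67), Lipa (1.85) and Ids (1.53), and 9 lower, led by Arsb (-2.55), Gm2a (-1.45), Pla2g15 (-1.17) and Galns (-1.03). Of 30 membrane and sorting genes 5 were higher and 5 lower. Laptm5, a membrane protein of blood cell lysosomes (42.2 ± 7.0 CPM in B, 207 ± 13 in T, 2.29), the cholesterol exporter gene Npc1 (2.16), Ostm1 (1.46) and Slc17a5 (1.16) were higher, and Mcoln2 (-1.37), Npc2 (-0.91), Vps18 (-0.75) and the mannose 6-phosphate receptor gene M6pr (-0.42) lower. Npc1 and Npc2, which hand cholesterol to each other, passed in opposite directions. The count of 62 fell to 38 without T wt 2, 39 without T deltaPOZ 1, 37 without T deltaPOZ 2 and 17 without the 3 libraries named above.

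Between genotypes 0 of the 153 passed by edgeR in any of the 4 contrasts. At an unadjusted p under 0.05 were 15 in B, 3 in T, 13 in the average and 8 in the difference. These were 9.80, 1.96, 8.50 and 5.23% of the 153, against 12.1, 2.65, 8.9 and 6.26% of all tested genes. DESeq2 called 5 in B, 2 in the average, 2 in the difference and 0 in T, and limma-voom 0 in all 4. For DESeq2 these were 3.27, 1.31, 1.31 and 0% of the 153, against 4.14, 1.93, 1.37 and 0.31% of all genes. Without the filter edgeR called 9 in B, 1 in T, 7 in the average and 3 in the difference, or 5.88, 0.654, 4.58 and 1.96%, against 4.79, 0.919, 3.21 and 2.84% of all genes in that fit. In B the smallest p were those of Rragd, a small GTPase gene that recruits mTORC1 to the lysosome, at 37.0 and 25.9 CPM in wt and 4.56 and 6.38 in deltaPOZ (-2.52, SE 0.31, edgeR adjusted p = 0.0729), and of Arsb, a sulfatase gene, at 51.3 and 29.6 against 7.33 and 6.54 (-2.54, SE 0.37, 0.105). In T both were at like levels in wt and deltaPOZ, 13.5 to 15.4 CPM for Rragd and 2.44 to 3.20 for Arsb, and the difference between lineages did not pass (edgeR adjusted p = 0.271 and 0.478). Retreg1 (-0.99), the glucosidase gene Gaa (1.57) and Atg16l2 (-0.75) followed in B with edgeR adjusted p of 0.235 to 0.289. In T they were Lipa, the lysosomal acid lipase gene, at 179 and 173 CPM in wt and 60.2 and 92.6 in deltaPOZ (-1.20, SE 0.29, edgeR adjusted p = 1), then Tecpr1 (-0.84), Gnptg (0.52), Naglu (0.73) and Ostm1 (-0.73).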

How the data were processed

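Messenger RNA of 8 spleen tumours was sequenced, 2 libraries in each of 4 groups. The values are raw gene counts as deposited. Per the submitters' processing notes, TopHat2 2.0.10, SAMtools, HTSeq and DESeq were used on mm10 (GRCm38). The library kit was stranded, per the labels' protocols, but the strand setting of the counting is not given in the sources used here. Rb1cc1, Becn1, Atg2b, Atg9a, Atg4d, Map1lc3b, Gabarapl1, Sqstm1, Optn, Lamp1, Ctsb and Hexa share exon bases with another counted gene, mostly on the opposite strand. No-feature (30.4 to 39.3%) and ambiguous (0.471 to 0.554%) counts were left out. Positions and exon lengths came from GENCODE M21, which held 40340 of 41214 identifiers (97.9%); lengths are of the union of all exons, which can exceed the message used.

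edgeR 4.0.16 scaled the counts (TMM), kept 16456 of 27639 genes with a count (filterByExpr) and fitted a mean for each group over all libraries (glmQLFit, glmQLFTest, residual degrees of freedom 4), with Benjamini-Hochberg adjustment over all tested genes and a threshold of 0.05. The 5 contrasts were the deltaPOZ effect in B tumours, that in T tumours, the mean of both, the difference between both, and T minus B. An SE is the fold change divided by the square root of F. DESeq2 1.42.0 and limma 3.58.1 (voom) in R 4.3.3, median-of-ratios factors, no filter, a filter of 5 CPM in 2 libraries, each lineage alone and leaving out each library were tried, and a fit without 3 libraries was added after seeing the data. Code was tested on simulated data. Tables used Python 3.11.15, pandas 2.3.3 and NumPy 2.4.6, and figures matplotlib 3.10.9.

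Values in every library are given for members past the threshold, the 5 smallest p of each genotype contrast, and the 2 highest and 2 lowest per length. Of the other pathway genes, up to 4 per direction and list with the largest fold in T against B and 5 with the smallest p in each genotype contrast could be named. The members and all lists were chosen with earlier results of these data known. A few list entries are not reported here.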

Additional observations from a re-analysis of the deposited data

How the results depend on the processing

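Members called between T and B, and those with the 5 smallest p of each genotype contrast, kept the sign of their fold change under every setting run. The 20 members called between T and B became 23 by DESeq2, 22 by limma-voom, 20 with median-of-ratios factors, 22 without a filter and 23 with a filter of 5 CPM in 2 libraries, which removed Map1lc3a. Leaving out 1 library gave 12 to 20 members and, of the other pathway genes, 37 to 55; the fit without 3 libraries gave 5 and 17, and 0 members in each genotype contrast. The lost calls include those of fits with fewer samples, each of which also called fewer of all tested genes between T and B. In the genotype contrasts the fit without a filter called 1 member in B, and of the other pathway genes 9 in B, 1 in T, 7 in the average and 3 in the difference, beside 4.79, 0.919, 3.21 and 2.84% of all genes in that fit. DESeq2 called 5 of them in B, 2 in the average and 2 in the difference; the cause was not tested. No paired analysis was possible because the numbers of the replicates come from record order and each mouse gave 1 library. With 2 libraries a group, values per mouse limit the precision more than the depth, and levels of Wipi1 in B deltaPOZ (0.117 and 0.140 CPM) lie near the limit that a count of 0 allows (0.0559 and 0.0590).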
